A study of Mus musculus with 25 samples.

Results

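The transcription factors of the blood stem cell heptad were followed in hematopoietic stem cells after deletion of Znf143. The list holds 10 genes named by their role: Gata2, Runx1, Tal1, Lyl1, Lmo2, Fli1 and Erg, which make up the heptad, and Ldb1, Mecom and Gfi1b, which act with it. All 10 were among the 23116 genes of the deposited expression table, and all 10 were among the 19279 genes that passed the filter on low values. RNA-seq was performed on HSLAM cells (LSK+ CD150+ CD48-) sorted from the bone marrow of adult C57BL/6 male mice aged 8 to 12 weeks, 3 of the genotype Znf143 f/f x Rosa26ERT2-Cre- (called Znf143 f/f) and 3 of the genotype Znf143 f/f x Rosa26ERT2-Cre+ (called Znf143-/-). Both genotypes carried the floxed allele, with loxP sites on both sides of exon 1, and received tamoxifen at the middle of the tested doses over 10 days. Rosa26 is active in nearly all cells, so the deletion was not restricted to blood cells, and controls carried no Cre. The mice were pairs of littermates, 1 of each genotype, and which libraries form a pair is not stated. The labels name the deleted genotype a CTCF knockout, whereas the study's methods describe a Znf143 deletion.

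The heptad factors bind together at enhancers of blood stem and progenitor cells, where they hold each other's genes and other stem cell genes active. GATA2 binds GATA motifs, RUNX1 binds RUNX motifs together with CBFB, FLI1 and ERG bind ETS motifs, and TAL1 and LYL1 bind E-boxes as partners of the E proteins. LMO2 does not bind DNA and bridges TAL1 or LYL1 and GATA2 through LDB1. ZNF143 is a zinc finger protein that binds promoters and, with CTCF, the anchors of chromatin loops.

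The libraries held 38643255 to 57895793 fragments on genes, as recovered from the deposited FPKM (fragments per kilobase of gene length, scaled by the library total). The third Znf143-/- library had been divided by the total of the second, which left its FPKM too high by a factor of 1.197. Each library was therefore divided by its median-of-ratios size factor (0.911 to 1.21), here called rescaling, and values as deposited are given beside the calls. Zfp143, the mouse symbol of the deleted gene, had a rescaled FPKM of 3.07 to 4.43 in the Znf143 f/f and of 0.155 to 0.298 in the Znf143-/- libraries, which matches the study's description of the genotypes. The libraries of a genotype did not differ from each other equally. Across genes with 20 to 200 fragments in a pair of libraries, the median squared difference was 1.76 times that of counting error between the first and the third Znf143 f/f library and 1.61 times between the second and the third Znf143-/- library, against 7.09 to 10.2 times in the other 4 pairs. The labels call all 6 separate samples, and the study describes the libraries as coming from separate mice. Because of the unequal spread, each call is also given with the 2 close pairs averaged to 1 sample each, which was decided once the data were known and leaves 2 samples against 2.

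After rescaling, 9 of the 10 factors had a lower mean in Znf143-/- than in Znf143 f/f cells, and the exception was Fli1. The log2 fold change was below 0 for 49.3% of all genes tested. As deposited, it was below 0 for 8 of the factors and for 38% of all genes. Erg, Mecom and Runx1 passed an adjusted p of 0.05 in limma, all lower in Znf143-/-, and none passed as higher. Of all 19279 genes tested, 576 (2.99%) were called lower and 578 (3.0%) higher by the same rule. None of the 10 factors had an unadjusted p under 0.05 in the higher direction, and 7 had one in the lower direction (11.8% of all genes). The same 7 factors, Erg, Mecom, Runx1, Gfi1b, Tal1, Ldb1 and Gata2, had all Znf143-/- libraries below all Znf143 f/f libraries, an order found lower in 15.3% and higher in 15.4% of all genes (two-sided exact permutation p = 0.1 for each of the 7, the smallest that 3 libraries against 3 can give). The median log2 fold change of the 10 factors was -0.32, beside 0.01 for all genes tested, a median that rescaling by size factors keeps near 0. The calls rested on the scaling and on the replicates. With the close libraries averaged, 47 genes were called, 29 of them lower (0.150%), and none of the factors, of which Erg and Mecom kept an unadjusted p under 0.05 (limma). With FPKM as deposited, 304 genes (1.58%) were called lower and 529 (2.74%) higher, again without any of the factors. Erg and Mecom then had an unadjusted p under 0.05 in limma, as 6.09% of all genes had in the lower direction, and were the 2 factors whose libraries did not overlap (8.43% of all genes were lower in this way and 16.7% higher). In bulk RNA, fewer cells that hold a transcript and less transcript per cell cannot be told apart.

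**Figure D1:**
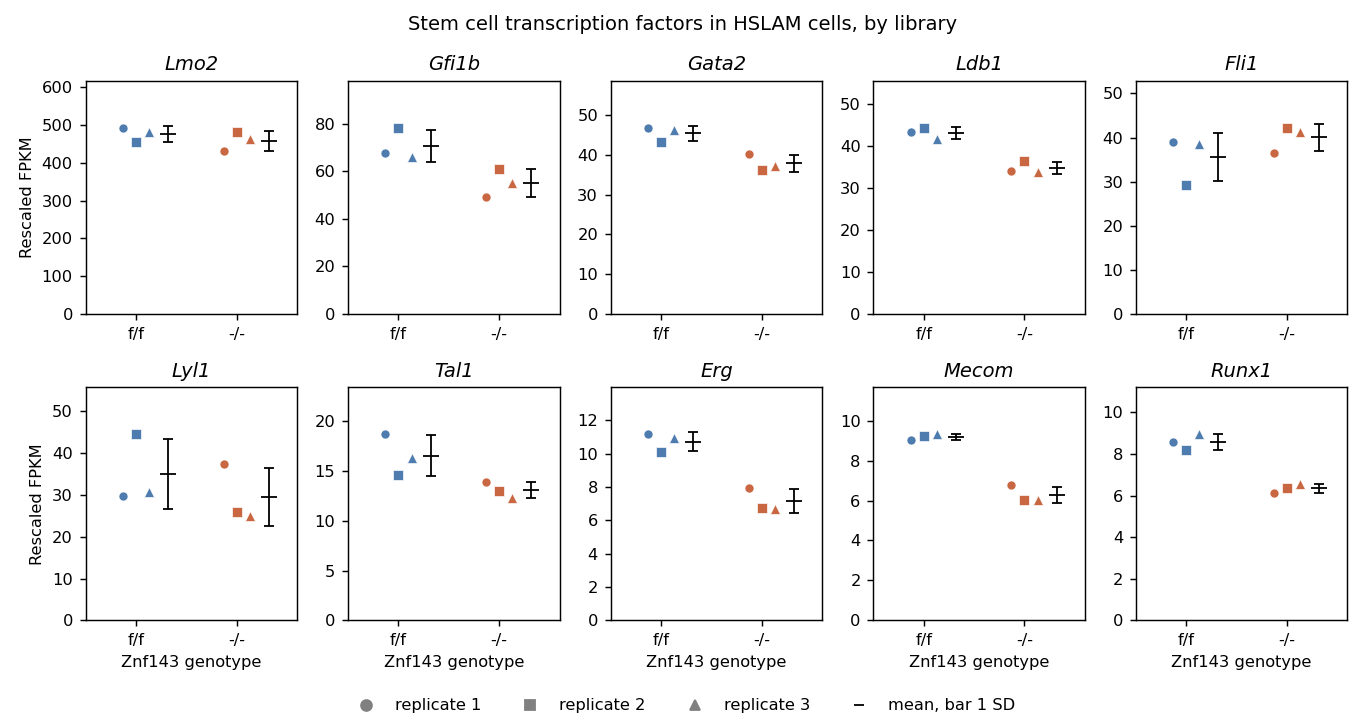
Rescaled FPKM (y axis, from 0, one scale per panel) of the 10 factors in the 3 Znf143 f/f (blue) and 3 Znf143-/- (orange) libraries, with replicate numbers by marker shape and the mean ± 1 SD in black. The Znf143-/- points of Erg, Mecom, Runx1, Gfi1b, Tal1, Ldb1 and Gata2 all lie below the Znf143 f/f points, while those of Lmo2, Lyl1 and Fli1 overlap.

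Erg (ENSMUSG00000040732.20, chr16:95359169-95586593 of GRCm38, minus strand) encodes an ETS factor required for stem cell self-renewal, and was the factor with the lowest log2 fold change. The control libraries had rescaled FPKM of 11.2, 10.1 and 10.9, and those of Znf143-/- cells 7.97, 6.76 and 6.69. On average the level fell to 66.5%, from 10.7 ± 0.571 (SD, n = 3) to 7.14 ± 0.717 (SD, n = 3). The groups did not overlap, and the first Znf143-/- library was the one nearest to the controls. This gave a log2 fold change of -0.58 (standard error, SE, 0.104, 95% confidence interval, CI, -0.83 to -0.33, limma adjusted p = 0.0275, by Benjamini-Hochberg over all genes). As deposited, the FPKM was 11.1, 9.19 and 10.9 against 7.43, 6.87 and 8.07, still without overlap, and the log2 fold change was -0.47 (limma adjusted p = 0.159). With the close libraries averaged it was -0.52 (limma adjusted p = 0.434). These values rest on 1152 to 1722 fragments per library, the smallest number among the factors.

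Mecom (ENSMUSG00000027684.16, chr3:29951296-30548008, minus strand) encodes EVI1, a zinc finger factor that maintains long-term stem cells. The rescaled levels were 9.01, 9.23 and 9.33 in controls and 6.76, 6.01 and 6.05 in Znf143-/- libraries. The controls lay close together, and all Znf143-/- libraries were lower. From a mean of 9.19 ± 0.164 (SD, n = 3) the level fell to 68.2%, at 6.27 ± 0.421 (SD, n = 3). In log2 the change was -0.55 (SE 0.0898, 95% CI -0.76 to -0.33, limma adjusted p = 0.0208), the lowest adjusted p of the 10 factors. The deposited values were 8.98, 8.41 and 9.27 against 6.30, 6.11 and 7.30, with a log2 fold change of -0.43 (limma adjusted p = 0.182). With the close libraries averaged the log2 fold change was -0.52 (limma adjusted p = 0.408). The gene overlaps 7 other annotated genes, among them the antisense transcript Mecomos, whose mean deposited FPKM was 1.204 in Znf143 f/f and 0.808 in Znf143-/-. The library kit does not mark strand, so reads of Mecom and Mecomos cannot be told apart where they overlap.

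Runx1 (ENSMUSG00000022952.17, chr16:92601466-92826149, minus strand) encodes the DNA-binding subunit of core binding factor, which is needed for the emergence of blood stem cells. Controls had a rescaled FPKM of 8.56, 8.19 and 8.96 and Znf143-/- libraries of 6.14, 6.35 and 6.56, so that the groups were apart. From 8.57 ± 0.382 (SD, n = 3) the mean went down to 74.1%, at 6.35 ± 0.211 (SD, n = 3). In log2 it changed by -0.43 (SE 0.0867, 95% CI -0.63 to -0.22, limma adjusted p = 0.0399). As deposited, the values were 8.53, 7.46 and 8.90 against 5.72, 6.45 and 7.92, and the third Znf143-/- library, the one with the divisor of another, lay above the second Znf143 f/f library. The log2 fold change was then -0.31 (limma adjusted p = 0.389), and with the close libraries averaged it was -0.42 (limma adjusted p = 0.513). CBFB, the partner that stabilizes RUNX1 on DNA, was not called (Cbfb log2 fold change 0.14, limma adjusted p = 0.565).

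**Figure D2:**
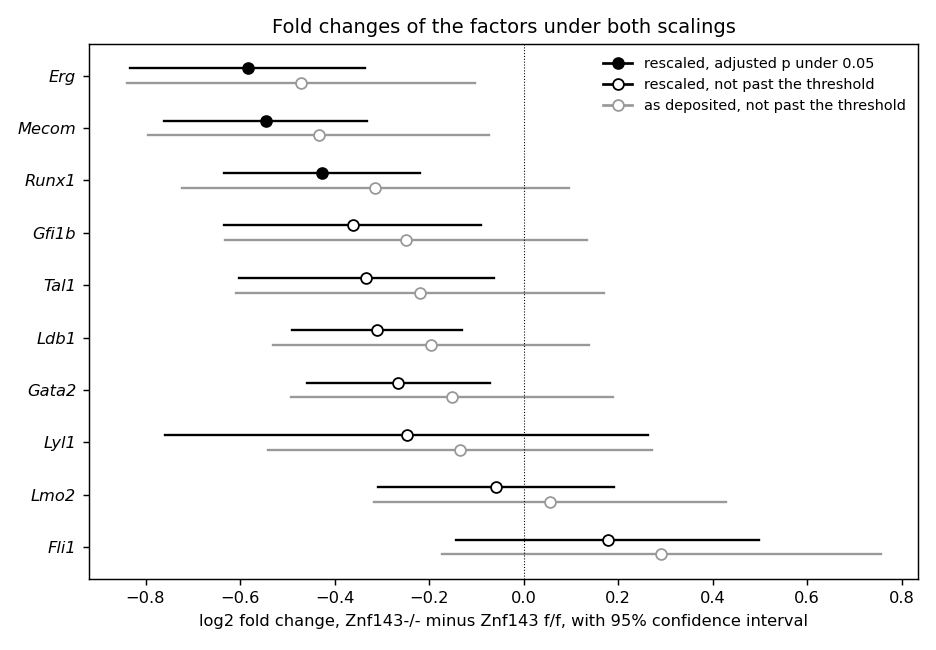
Log2 fold change of each factor (x axis, Znf143-/- minus Znf143 f/f, on log2(FPKM + 0.1)) with its 95% confidence interval, after rescaling (black) and as deposited (grey). Filled points have an adjusted p under 0.05, which only Erg, Mecom and Runx1 reach after rescaling and no factor reaches as deposited.

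Each of the 3 called genes has several promoters, and the deposited value of a gene sums over all of its transcripts, so that a change at 1 promoter cannot be told from a change at all. RefSeq (GRCm38.p6) lists 16 promoters for 8 of the factors, 3 of them for Erg, 2 for Mecom and 2 for Runx1. The 250 bases before the start are shown, 5′ to 3′ on the strand of the gene, for both promoters of Runx1 and Mecom and for the first and the last promoter of Erg, because these are the genes that were called. Capitals mark a GATA motif, here TTATCT, which reads AGATAA on the other strand.
Runx1 distal promoter, chr16:92826075-92826324: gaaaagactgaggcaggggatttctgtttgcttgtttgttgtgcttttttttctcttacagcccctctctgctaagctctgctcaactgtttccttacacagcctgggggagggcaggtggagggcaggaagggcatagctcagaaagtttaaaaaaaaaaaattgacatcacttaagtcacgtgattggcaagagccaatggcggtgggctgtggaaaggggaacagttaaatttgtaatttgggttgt
Runx1 proximal promoter, chr16:92697330-92697579: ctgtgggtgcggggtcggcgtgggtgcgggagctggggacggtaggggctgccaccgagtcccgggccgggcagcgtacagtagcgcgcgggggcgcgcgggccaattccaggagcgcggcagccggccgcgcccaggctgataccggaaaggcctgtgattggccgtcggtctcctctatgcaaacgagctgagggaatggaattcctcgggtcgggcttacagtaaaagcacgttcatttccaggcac
Mecom first promoter, chr3:30509760-30510009: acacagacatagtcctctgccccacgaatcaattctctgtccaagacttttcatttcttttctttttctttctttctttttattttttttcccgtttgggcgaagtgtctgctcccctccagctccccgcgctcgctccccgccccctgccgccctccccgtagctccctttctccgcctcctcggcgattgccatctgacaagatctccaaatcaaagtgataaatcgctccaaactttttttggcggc
Mecom second promoter, chr3:30013205-30013454: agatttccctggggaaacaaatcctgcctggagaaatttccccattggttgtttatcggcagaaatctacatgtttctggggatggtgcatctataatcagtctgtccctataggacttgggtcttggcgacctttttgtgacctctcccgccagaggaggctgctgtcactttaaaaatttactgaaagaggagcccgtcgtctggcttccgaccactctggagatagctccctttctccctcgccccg
Erg first promoter, chr16:95586594-95586843: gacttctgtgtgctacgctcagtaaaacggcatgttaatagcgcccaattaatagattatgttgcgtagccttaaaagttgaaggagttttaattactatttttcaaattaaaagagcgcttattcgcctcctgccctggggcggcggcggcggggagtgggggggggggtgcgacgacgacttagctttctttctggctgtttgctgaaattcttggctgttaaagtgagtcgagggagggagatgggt
Erg last promoter, chr16:95459349-95459598: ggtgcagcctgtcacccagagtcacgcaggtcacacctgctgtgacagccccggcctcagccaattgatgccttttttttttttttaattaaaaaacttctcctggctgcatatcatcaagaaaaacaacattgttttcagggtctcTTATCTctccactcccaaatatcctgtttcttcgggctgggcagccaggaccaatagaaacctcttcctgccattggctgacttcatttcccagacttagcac
The distal Runx1 window is 45.6% G or C and the proximal one 67.6%, beside 53.2% over all 32851 promoter windows. The Mecom windows hold 50.8% and 50.4%, and the Erg windows shown 48.8% and 47.2%. The letters ACTACAA, which are part of the sequence bound by ZNF143, were found on neither strand of the 16 windows, and 2.81% of all windows hold them. The letters AGATAA were found in 3 of the 16 windows, in 1 window each of Erg, Tal1 and Ldb1, and in 9.99% of all windows. TGTGGT (a RUNX motif, 14% of all windows), GGAAGT (an ETS motif, 19.7%) and CAGCTG (an E-box, 13%) were in none of the 16. Both strands were searched for each, and no match says only that these letters are not in these windows.

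None of the other 7 factors was called. Tal1 (ENSMUSG00000028717.12, chr4:115056426-115071755), the basic helix-loop-helix factor that specifies blood, had a rescaled FPKM of 18.7, 14.6 and 16.3 in Znf143 f/f and of 13.9, 13.0 and 12.3 in Znf143-/- libraries. The groups did not overlap after rescaling, although the second control came close, and the log2 fold change of -0.33 (SE 0.113) did not pass the test (limma adjusted p = 0.137). Gata2 (ENSMUSG00000015053.14, chr6:88193891-88207032), the GATA factor of stem and progenitor cells, had 46.8, 43.4 and 46.2 against 40.3, 36.2 and 37.1. All Znf143-/- libraries were again lower, by a log2 fold change of -0.26 (SE 0.0808, limma adjusted p = 0.109). As deposited, both genes overlapped between genotypes, the third Znf143-/- library lying above the second control for Tal1 (14.9 against 13.3) and for Gata2 (44.7 against 39.5). Without the first Znf143-/- library, Gata2 passed as well (log2 fold change -0.31, limma adjusted p = 0.0448). That fit keeps only the close pair of Znf143-/- libraries. It called 2112 of 19187 genes, 987 of them lower, against 1154 of 19279, 576 of them lower, with all libraries.

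Ldb1 (ENSMUSG00000025223.15, chr19:46031570-46045214), which dimerizes and so joins distant complexes, had a rescaled FPKM of 43.4, 44.5 and 41.7 in Znf143 f/f and of 34.1, 36.5 and 33.8 in Znf143-/- libraries. Both genotypes were tight and apart after rescaling, and the log2 fold change of -0.31 (SE 0.0751, limma adjusted p = 0.0628) missed the threshold. As deposited, the third Znf143-/- library (40.8) lay above the second control (40.5), and the log2 fold change was -0.20 (limma adjusted p = 0.515). Ldb1 overlaps Pprc1 on the opposite strand, a gene with a mean deposited FPKM of 3.68 in Znf143 f/f and 2.57 in Znf143-/-. Lmo2 (ENSMUSG00000032698.15, chr2:103957986-103981878), the bridge between LDB1 and the DNA-binding factors, stood at 493, 454 and 482 against 430, 481 and 462. The groups overlapped, and the log2 fold change was -0.06 after rescaling (95% CI -0.31 to 0.19, limma adjusted p = 0.784) and 0.06 as deposited. Its direction thus turned with the scaling, under a divisor that had raised the third Znf143-/- library.

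Gfi1b (ENSMUSG00000026815.14, chr2:28609450-28621982, minus strand), a repressor needed for erythroid and megakaryocyte development, had a rescaled FPKM of 67.5, 78.4 and 66.2 in Znf143 f/f and of 49.1, 61.0 and 55.1 in Znf143-/- libraries. These groups were apart, with a log2 fold change of -0.36 (SE 0.114, limma adjusted p = 0.117). As deposited, the third Znf143-/- library (66.5) lay above the third control (65.8). The remaining 2 factors, Lyl1 and Fli1, overlapped under both scalings.

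Lyl1 and Fli1 are the close relatives of Tal1 and Erg, and each was followed as a pair with its relative. Lyl1 (ENSMUSG00000034041.4, chr8:84701457-84704715) had a rescaled FPKM of 29.7, 44.5 and 30.6 in Znf143 f/f and of 37.3, 26.0 and 24.9 in Znf143-/- libraries. In each genotype 1 library stood high, the second control and the first Znf143-/-, which are the libraries outside the close pairs, and the log2 fold change of -0.25 had the largest SE of the factors (0.214, limma adjusted p = 0.535). Lyl1 overlaps Nfix on the opposite strand (mean deposited FPKM 9.43 in Znf143 f/f and 6.09 in Znf143-/-). Fli1 (ENSMUSG00000016087.13, chr9:32422204-32542861, minus strand), an ETS factor of stem cells and megakaryocytes, had 39.0, 29.3 and 38.5 against 36.5, 42.2 and 41.3. The second control was low and the other libraries lay together, and the log2 fold change was 0.18 (95% CI -0.14 to 0.50, limma adjusted p = 0.471).

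A ratio of 2 genes within a library does not depend on how the library was scaled. The log2 ratio of Erg to Fli1 was -1.80, -1.54 and -1.82 in controls and -2.20, -2.64 and -2.63 in Znf143-/- cells. All Znf143-/- values were lower, and the mean fell from -1.72 ± 0.159 (SD, n = 3) to -2.49 ± 0.253 (SD, n = 3). The two-sided exact permutation test gave p = 0.1, the smallest that 3 libraries against 3 allow, and 0.2 after Benjamini-Hochberg adjustment over the 2 pairs compared. For Tal1 over Lyl1 the log2 ratio was -0.67, -1.61 and -0.91 against -1.42, -1.001 and -1.02, with the genotypes overlapping (exact permutation p = 0.8). Because both pairs were looked at after the values of the single genes were known, the ratios describe these libraries.

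**Figure D3:**
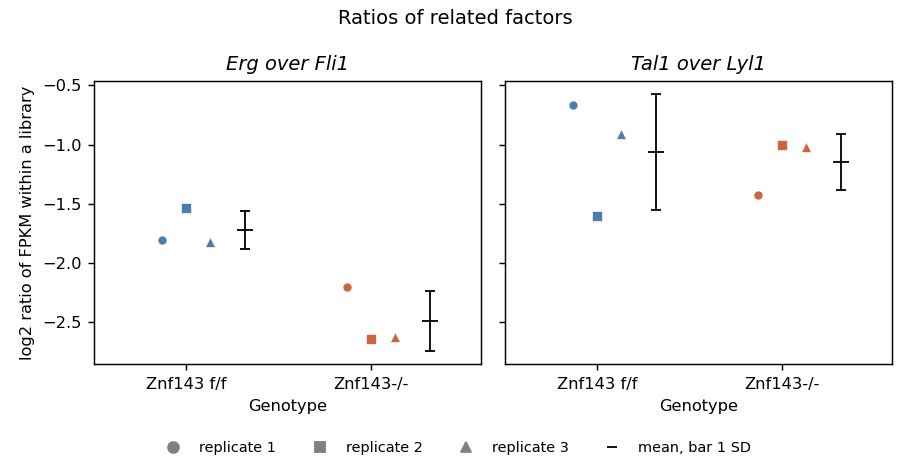
Log2 ratio of the FPKM of related factors within each library (y axis), Erg over Fli1 on the left and Tal1 over Lyl1 on the right, for Znf143 f/f (blue) and Znf143-/- (orange), with the mean ± 1 SD in black. The Erg to Fli1 ratio is between -1.82 and -1.54 in controls and between -2.64 and -2.20 in Znf143-/-, whereas the Tal1 to Lyl1 ratio spans both genotypes.

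FPKM divides by 1 listed length per gene, so that an order between genes depends on these lengths. Mecom (12427 bases) and Runx1 (11827) had the longest listed lengths of the 10 factors, with 3673 to 5653 and 3220 to 4774 fragments per library. Erg (3466 bases) had 1152 to 1722 fragments. In the order of rescaled FPKM, Lmo2 stood far above the rest, with 61.7% to 67.4% of the summed level of the 10 factors in every library. In Znf143 f/f cells it was followed by Gfi1b, Gata2, Ldb1, Fli1, Lyl1, Tal1, Erg, Mecom and Runx1. Gata2 and Ldb1 overlapped in level, as did Fli1 and Lyl1, and the other neighbours in this order did not. In Znf143-/- cells, Gata2, Ldb1, Fli1 and Lyl1 overlapped with their neighbours in the order, as did Erg, Mecom and Runx1. Among all genes tested, the Znf143 f/f level of Runx1 was at percentile 72.0 and that of Lmo2 at percentile 99.3. The summed level of the 10 factors was 736 to 767 in Znf143 f/f and 662 to 715 in Znf143-/- libraries.

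The libraries also differed within a genotype. After rescaling, the second Znf143 f/f library was the lowest control for 6 factors (Gata2, Runx1, Tal1, Lmo2, Fli1 and Erg) and the highest for Lyl1, Ldb1 and Gfi1b. Among the Znf143-/- libraries, the first was the highest for 5 factors (Gata2, Tal1, Lyl1, Erg and Mecom) and the lowest for Runx1, Lmo2, Fli1 and Gfi1b. As deposited, the third Znf143-/- library, whose divisor was too small, was the highest of its genotype for 9 of the 10 factors. The median absolute log2 difference of the factors was 0.0384 between the first and the third control and 0.0526 between the second and the third Znf143-/- library, against 0.122 to 0.166 in the other pairs.

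None of the 20 binding partners and cofactors was called (limma, adjusted p under 0.05, under both scalings). Their median log2 fold change was -0.15. The 3 with the highest levels were Ctbp1 and Ssbp4, a corepressor and a protein that protects LDB1 from degradation, at 0.15 each, and Hdac1, a histone deacetylase. Hdac1 had a rescaled FPKM of 60.0, 40.5 and 55.2 in Znf143 f/f and of 33.4, 32.9 and 31.8 in Znf143-/- libraries, with a log2 fold change of -0.65 (SE 0.15, limma adjusted p = 0.0569). All Znf143-/- values were lower after rescaling, while the controls were spread more widely. As deposited, the third Znf143-/- library (38.3) lay above the second control (36.9). Named after their values were seen, Cbfa2t3 was lower (log2 fold change -0.51, limma adjusted p = 0.0537) and Lmo1 higher (0.33, 0.129). The genotypes were apart for Cbfa2t3 and Lmo1 under both scalings. The 4 E protein inhibitors, which keep E proteins from DNA, were not called either, and their log2 fold changes lay between 0.22 (Id1) and 0.95 (Id4).

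Of the 10 paralogs of the factors, Tal2 was not listed. Of the other 9, 3 were called, all higher in Znf143-/- cells, beside 3.0% of all genes called higher. Gata1, the GATA factor of erythroid cells and megakaryocytes, had a rescaled FPKM of 22.3, 21.1 and 21.1 in Znf143 f/f and of 33.6, 37.4 and 36.2 in Znf143-/- libraries. It rose by a log2 fold change of 0.73 (SE 0.0789, limma adjusted p = 0.00571 after rescaling and 0.026 as deposited), and without the third Znf143-/- library the adjusted p was 0.0509. Gfi1, the relative of Gfi1b that acts in stem and myeloid cells, went from 3.27, 2.59 and 3.05 to 6.41, 7.81 and 8.05. Its log2 fold change was 1.29 (SE 0.139, limma adjusted p = 0.00568 after rescaling and 0.0108 as deposited), and it passed with each library left out. Fev, an ETS factor, was called after rescaling (log2 fold change 1.22, limma adjusted p = 0.044) and not as deposited (0.0593), on 6 to 35 fragments per library. With the close libraries averaged, the adjusted p from limma was 0.199 for Gata1, 0.129 for Gfi1 and 0.456 for Fev, so that none of the 3 was called. Runx3 (-0.06) and Gata3 (-0.30) are examples of paralogs that were not called.

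None of the 13 known targets of the heptad was called under either scaling, and their median log2 fold change was -0.23. Adgrg1, an adhesion receptor of stem cells, had a log2 fold change of -0.29 (limma adjusted p = 0.262) and Nfe2, a megakaryocyte factor, of -0.23 (0.325). Chosen after their values were seen, Itga2b, an integrin of megakaryocytes (log2 fold change 0.66, limma adjusted p = 0.0523), and Hhex, a homeobox factor (0.39, 0.0678), had all Znf143-/- libraries above all Znf143 f/f libraries. Other targets went the other way. Eng (-0.59, limma adjusted p = 0.0795), Kit (-0.45, 0.0659) and Spi1 (-0.28, 0.0756) were among those with all Znf143-/- libraries below all controls after rescaling. As deposited, the libraries of Eng, Kit and Spi1 overlapped.

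**Figure D4:**
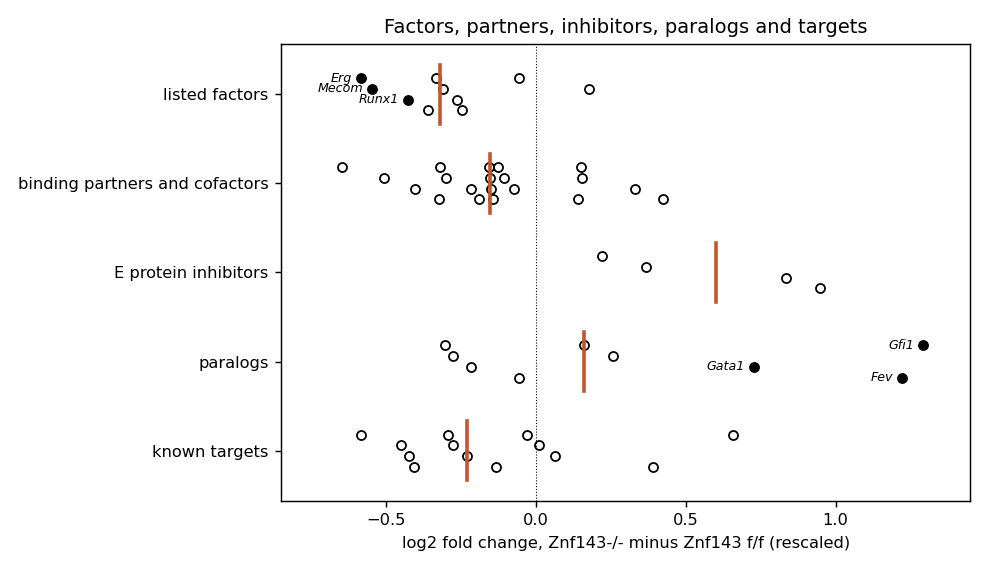
Log2 fold change after rescaling (x axis) of the 10 factors and of the measured genes of 4 related lists, with 1 point per gene, filled where the adjusted p was under 0.05, and an orange bar at the median. The called factors Erg, Mecom and Runx1 are on the lower side and the called paralogs Gata1, Gfi1 and Fev on the higher side, with medians of -0.32 and 0.16.

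Among markers of other cells, some lymphoid and myeloid ones and Gata1 were called higher in Znf143-/- cells. Of the genes that define the sort, Ly6a, which encodes Sca-1, had 239 to 288 in Znf143 f/f and 550 to 602 in Znf143-/- libraries, and Cd48, which the sort excludes as a surface protein, had 9.56 to 11.1 and 19.6 to 20.4, both called higher (limma adjusted p = 0.00452 and 0.00307 after rescaling, 0.00379 and 0.00685 as deposited). No other of the 10 stem cell markers was called, and the median log2 fold change of the list was -0.20. Of the other sort genes, Kit was lower (-0.45, limma adjusted p = 0.0659) and Slamf1, which encodes CD150, higher (0.36, 0.24). Hlf (-0.45, limma adjusted p = 0.0564) and Hoxb5 (-0.40, 0.166) were lower. The genotypes were apart for Kit, Slamf1, Hlf and Hoxb5 after rescaling and overlapped as deposited. Of the 5 lymphoid progenitor markers listed in the table, 3 were tested and Dntt and Flt3 were called higher, with a summed level of 5.27 to 6.24 in Znf143 f/f and of 23.4 to 23.9 in Znf143-/- libraries. Of 8 myeloid markers, 7 were tested and Elane, Ctsg, Csf1r and S100a8 were called higher (sum 162 to 246 against 219 to 362, most of it Prtn3, which had a log2 fold change of 0.03 and a limma adjusted p of 0.97). These 6 lymphoid and myeloid calls also passed as deposited (limma adjusted p = 0.00105 to 0.0434). Of all genes tested, 3.0% were called higher after rescaling and 2.74% as deposited. Some of the calls rest on few fragments in controls, with 1, 0 and 3 for Csf1r, 4, 0 and 13 for Ctsg, 17, 4 and 35 for Elane, and 27, 0 and 28 for Dntt. Of 8 erythroid markers Gata1 was called higher, and the sum, most of it Car2, was 1085 to 1353 against 881 to 891. Car1, Car2 and Hba-a1 had all Znf143-/- libraries below all controls under both scalings, and Gata1 and Epor had them above. Car1 stood at 141 in the second control, against 15.1 and 21.8 in the first and the third. None of 6 megakaryocyte markers was called (sum 543 to 625 against 675 to 1013), nor any of the 4 endothelial (9.03 to 10.2 against 9.38 to 10.6) or the 3 tested mast cell and basophil markers (2.66 to 4.66 against 3.61 to 11.96). Mature lymphocyte markers were near 0 (sum at most 0.198), and no gene of these lists that is in the table was at 0 in every library. With the close libraries averaged, Flt3 alone of these called markers kept its call (limma adjusted p = 0.0404). The part of cell makeup in the levels of the factors was not tested.

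Of the 20 nearest tested protein-coding neighbours, 1 on each side of each factor, Kcnj5 was called, higher in Znf143-/- cells, beside 3.0% of all genes called higher. It lies 77853 bases from Fli1 and had 0, 5 and 2 fragments in controls and 59, 80 and 71 in Znf143-/- cells. Its log2 fold change was 1.84 (limma adjusted p = 0.0165 after rescaling and 0.0186 as deposited), and the call was lost with the close libraries averaged (0.305) and in 4 of the 6 fits with 1 library left out (adjusted p up to 0.1). The median log2 fold change of the 20 neighbours was 0.09, with 8 of them below 0. The genes whose levels were most like the mean of the standardized log2 levels of the 10 factors, out of 12519 with a mean rescaled FPKM of at least 1, were Fam69b, mt-Co1, Psmd10, Snrpa and Jmjd8, with Pearson correlations of 0.9971 to 0.9982 over the 6 libraries. The libraries fall into 2 genotypes and share their size factors, so that these correlations only describe the order of 6 points.

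**Figure D5:**
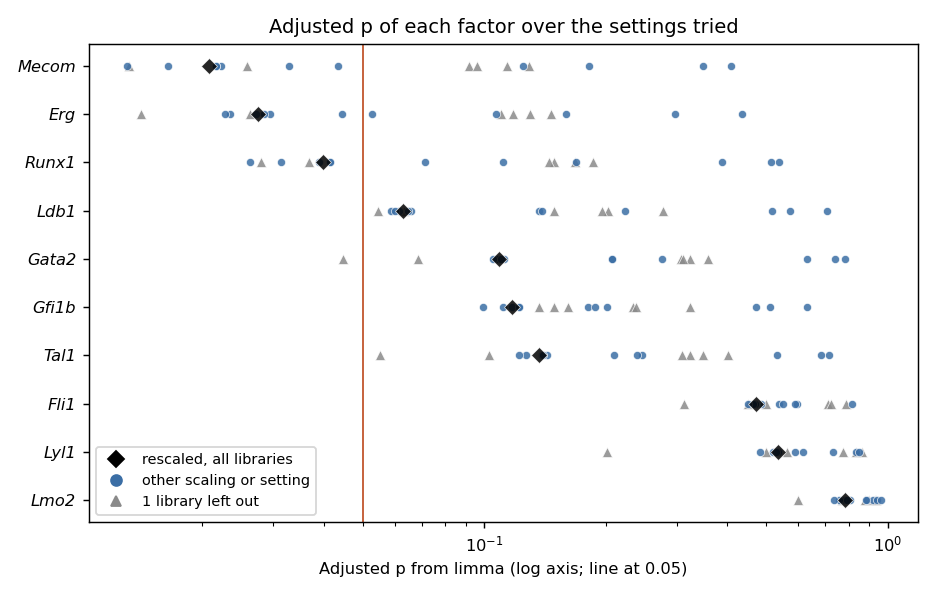
Adjusted p from limma (log x axis, line at 0.05) of each factor after rescaling with all libraries (diamond), under other scalings and settings (circles) and with 1 library left out (triangles). Mecom, Erg and Runx1 lie on both sides of the line, Gata2 crosses it once, and the other 6 factors do not reach it.

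Over the 17 alternatives tried, Mecom was called in 9, Erg in 8, Runx1 in 7 and Gata2 in 1. Adjusted p-values of limma ranged from 0.0130 to 0.408 for Mecom, from 0.0141 to 0.434 for Erg and from 0.0263 to 0.538 for Runx1. The log2 fold changes were steadier, from -0.60 to -0.43 for Mecom, from -0.66 to -0.47 for Erg and from -0.46 to -0.31 for Runx1. With 1 library left out, none of the factors was called when the first or the third Znf143 f/f or the second or the third Znf143-/- library was missing, the members of the close pairs. The adjusted p of limma without 1 of these 4 libraries was 0.110 to 0.146 for Erg, 0.0915 to 0.129 for Mecom and 0.145 to 0.186 for Runx1. Erg, Mecom and Runx1 were called when the second control was left out, and together with Gata2 when the first Znf143-/- library was. The number of all genes called moved in the same way. It was 2280 without the second control and 2112 without the first Znf143-/- library, against 223 to 371 without 1 of the other 4.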

How the data were processed

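The 6 RNA-seq libraries of HSLAM cells were analysed, and the other samples of the series were not used here. The authors prepared libraries with the SMART Seq v4 and Nextera XT kits, used TrimGalore on the reads, STAR for alignment to GRCm38, FeatureCounts for counting and DESeq2 for their comparison of genotypes. The authors deposited 1 table with an FPKM per library and gene, the length of each gene, and 6 columns of their own comparison, which hold mean levels, fold changes and p-values and were not used. FPKM times length gave whole fragments (within 0.05) for 99.986% of 138696 values, so that the total behind each library and the divisor the authors used could be recovered.

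FPKM were divided by median-of-ratios size factors and tested with limma 3.58.1 in R 4.3.3 (lmFit, eBayes with a variance trend, no block) on log2(FPKM + 0.1), for all genes whose mean FPKM reached 0.1, with Benjamini-Hochberg adjustment over all genes tested, and a gene was called at an adjusted p under 0.05. A fold change on this scale understates the change of low genes. Single genes and ratios were compared by two-sided exact permutation tests (scipy 1.17.1). Replicates are separate samples by the labels and separate mice by the study's description.

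The factors and the gene lists were chosen with earlier results of these data known, and the comparison of libraries with each other and the averaging of close libraries were added after the data were seen. Named were all 10 factors, list genes that were called with up to 3 of the highest level per list, neighbours that were called and the 5 genes most like the factors. Some other list genes were named after their values were seen. The values of 1 gene of the target list are not reported here. Coordinates and overlapping genes come from GENCODE release M21 and promoters from RefSeq, both on GRCm38. Alternatives were the FPKM as deposited, each library divided by its own total, pseudocounts of 0.01 and 1, no filter or a mean FPKM of at least 1, voom on recovered fragments, no variance trend, the replicate number as a block and each library left out.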

Additional observations from a re-analysis of the deposited data

How the results depend on the processing

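Of 170 values of single factors under 17 alternatives, 140 kept their direction and their side of the threshold, 27 lost a call, 1 gained one (Gata2) and 2 turned, both Lmo2, which was 0.0561 with FPKM as deposited, with and without the replicate block. The number of factors called, 3 after rescaling, was 0 with FPKM as deposited, 1 (Mecom) without the variance trend, 0 with the replicate block, 0 with the block on FPKM as deposited, 0 with close libraries averaged, 2 with each library divided by its own total (Runx1 lost, log2 fold change -0.40, limma adjusted p = 0.111), and 0 to 4 with each library left out. With the replicate block, limma adjusted p was 0.107 for Erg, 0.125 for Mecom and 0.169 for Runx1. The number of all genes called, 1154 (576 of them lower) after rescaling, was 191 with the replicate block, 47 with close libraries averaged, and 223 (without the third Znf143-/- library) to 2280 (without control 2) with 1 library left out. As deposited, 833 genes were called, 304 of them lower, and the median of all genes was 0.11 in place of 0.01. The median of the 10 factors was -0.21 as deposited, with or without the block, and the number of factors whose libraries did not overlap was 2 in place of 7. The mice were littermate pairs, but the replicate numbers are not stated to mark the pairs, and deviations of same-numbered libraries from their group means correlated at -0.0952, -0.0884 and 0.0353. Depth was at least 1152 fragments per library for each factor. A leave-one-out fit keeps 2 libraries in 1 genotype and pools their spread with the other.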
